A study of Mus musculus with 12 samples.

Results

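The deposited data hold 12 RNA sequencing libraries of conventional dendritic cells sorted from mouse spleen. The comparison described here sets the 4 libraries whose titles end in replicate 1 against the 8 whose titles end in replicate 2 or 3. The contrast was chosen from earlier results of these same data, in which the libraries numbered 1 stood apart. The values of that contrast are therefore given as a description of these libraries, with no test and with no p-value read from it. Tests are given only for contrasts that the choice did not use.

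Conventional dendritic cells of the spleen fall into type 1 (cDC1) and type 2 (cDC2). The libraries form 4 groups of 3, namely cDC1 and cDC2 from wild-type mice (WT) and cDC1 and cDC2 from mice labelled zfp366-/- (KO). The product of this gene, a nuclear zinc finger protein, is called DC-SCRIPT. All mice were female C57/BL6, and no treatment other than the tissue preparation is given: every spleen went through a digestion with collagenase and DNAse, and the sequencing kit (TruSeq) took polyA RNA. The labels give neither ages, sort gates nor the cell type in which Zfp366 was deleted, and they number 6 pools of mice. KO replicates 1 to 3 came from pools 1 to 3 and WT replicates 1 to 3 from pools 4 to 6, with a cDC1 and a cDC2 library made from every pool. The 4 libraries numbered 1 thus came from 2 pools, so that they are not 4 independent preparations. The labels give no date, operator or sequencing run.

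Cells meet protein damage with the heat shock response. The transcription factor HSF1 binds repeated GAA units in promoters and switches on chaperones such as the HSP70 proteins Hspa1a and Hspa1b and their partner Dnajb1. Immediate early genes such as Fos, Jun and Egr3 respond within minutes to growth factors, stress and tissue dissociation. Conventional dendritic cells are rare in the spleen, and red blood cells, macrophages, neutrophils and lymphocytes surround them. Globins such as Hba-a1 are made by the red cell lineage and S100a8 and S100a9 by neutrophils, so their reads in a sorted dendritic cell library can come from neighbouring cells. The source of these reads was not tested here. In bulk libraries, fewer cells of such a type and less RNA per cell cannot be told apart.

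The libraries held 11330503 to 36761685 counted reads, and the 4 numbered 1 held between 17090924 and 34886405. Levels are given as CPM, reads of a gene relative to the total of its library, after TMM scaling, which adjusts those totals so that most genes have the same level in all libraries. Zfp366 itself stood at 152, 89.2 and 67.5 CPM in cDC1 WT replicates 1 to 3 and at 48.8, 48.4 and 45.4 in cDC1 KO. The cDC2 WT libraries held 52.6, 62.4 and 57.4 CPM and the cDC2 KO libraries 55.0, 80.6 and 65.1, so its reads did not separate the genotypes there. Dendritic cell genes were high throughout: Itgax, the integrin CD11c, lay between 411 and 1583 CPM in the 12 libraries.

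The genotype labels of the cDC2 libraries numbered 1 went against their expression. In cDC1, 295 genes differed between KO and WT by more than 2 log2 units in the same direction in both replicate 2 and replicate 3. Of these, 272 (92.2%) had the same sign in replicate 1, with a Pearson r of 0.87 across those genes. In cDC2, 68 genes met that condition, and 1 of them (1.47%) had the same sign in replicate 1, while 38 were opposite by more than 2 log2 units, with r = -0.93. Apold1 shows the pattern: its level was 346, 229 and 189 CPM in cDC1 WT replicates 1 to 3 against 0.711 to 1.15 in cDC1 KO. In cDC2 it was 0.806 CPM in the library labelled WT replicate 1 and 31.7 and 28.8 in WT replicates 2 and 3, but 47.6 in the library labelled KO replicate 1 and 1.09 and 0.881 in KO replicates 2 and 3. Apold1 was picked here after its values were seen. The library labelled cDC2 WT replicate 1 also held more of some cDC1 markers than its group mates, with Cd8a at 62.2 CPM against 2.98 and 4.65 and Irf8 at 91.4 against 28.2 and 18.4, both picked after their values were seen. The cDC1 signature list has 26 genes, of which that library was above both group mates for 16 and below both for 5, among the latter Cd36 at 8.94 CPM against 23.9 and 33.0. The list summed to 1676 CPM there against 1571 and 1644. In the library labelled cDC2 KO replicate 1, 18 of the 26 were above both group mates and 7 below both. The sum there was 1878 CPM against 1617 and 1622, so a rise in this list was not particular to 1 of these libraries. The matching shares over all genes were not counted. The mean of the replicate 1 shift over both genotypes is nearly the same whichever of these 2 libraries carries which label. Any difference between KO and WT depends on the labels. So do the shift of each cDC2 group, the counts of groups with replicate 1 highest or lowest, the spread and the calls. Results are therefore given with all libraries, and the values without this pair stand beside them where a call was lost or a result rests on it.

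**Figure D1:**
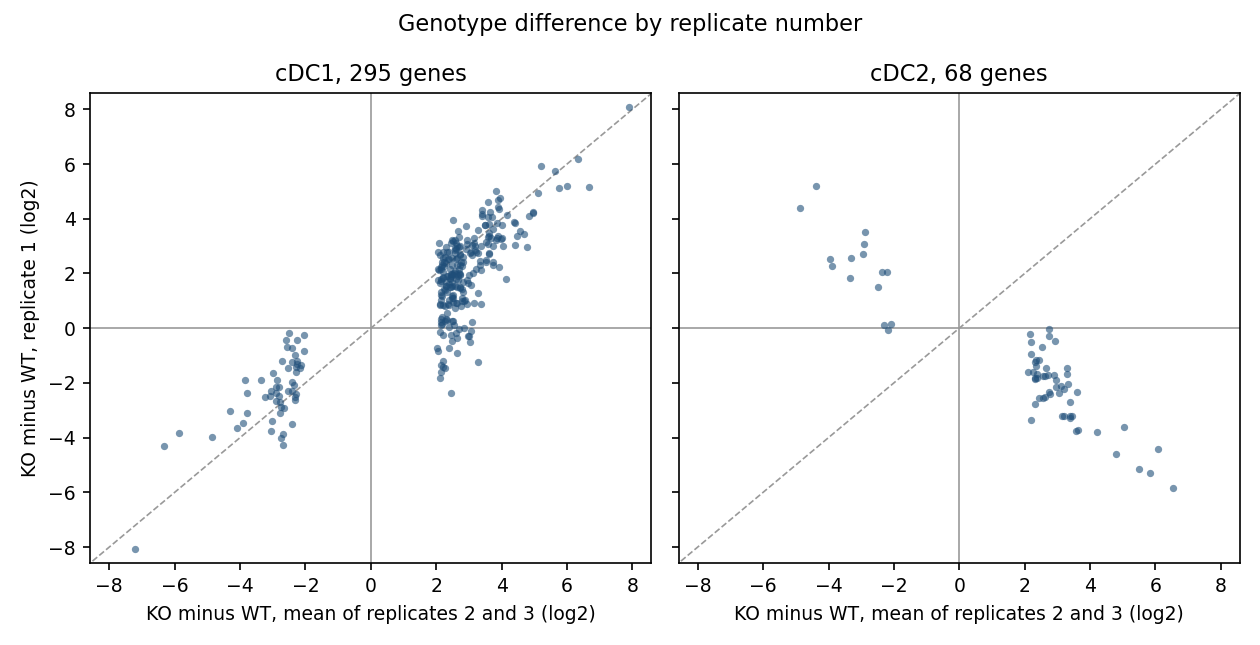
Difference between KO and WT on the log2 scale in replicate 1 (vertical axis) against the mean of replicates 2 and 3 (horizontal axis), with 1 point per gene that differed by more than 2 in both replicate 2 and replicate 3. The dashed line marks equal values. The 295 genes of cDC1 lie along the line and the 68 of cDC2 lie across it, with 1 of them on the same side of 0 in replicate 1.

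The libraries numbered 1 differed from their group mates by more than those did from each other. Over 8549 genes with a mean of at least 10 CPM, the median absolute log2 difference between replicates 2 and 3 was 0.163 in cDC1 WT, 0.098 in cDC1 KO, 0.246 in cDC2 WT and 0.102 in cDC2 KO. Between replicate 1 and either of the others it was 0.604 and 0.739 in cDC1 WT, 0.182 and 0.164 in cDC1 KO, then 0.367 and 0.487 for cDC2 WT and 0.441 and 0.405 for cDC2 KO. The library numbered 1 of cDC1 KO was thus the nearest to its group mates. Both cDC2 libraries numbered 1 go against their genotype labels, so their distances can hold a genotype difference too. That part and a shift of replicate 1 cannot be told apart in these distances. A gene is called here when its adjusted p in edgeR's quasi-likelihood test of this contrast was below 0.05, and a call serves only as a label. Of 13415 genes tested, 353 were called (2.63%), with 213 higher in replicate 1 (1.59%) and 140 lower (1.04%). The changes upward were smaller than those downward. Among the higher genes 24 exceeded a 2-fold change, and 1 of these, Fosl1, a member of the AP-1 family with 78 reads in the 4 libraries against 20 in the other 8, exceeded 8-fold. Among the lower genes 95 exceeded 2-fold and 15 exceeded 8-fold. The threshold lay between Apoc1, the last gene called at a fitted log2 difference of -4.71 from 3 reads against 98, and Ddb1, the first not called at 0.58.

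The called genes moved in the same direction in each group, which their choice by this same contrast favours. The median shift of the 213 higher genes was 0.82 in cDC1 WT, 0.45 in cDC1 KO, 0.62 in cDC2 WT and 0.73 in cDC2 KO on the log2 scale. That of the 140 lower genes was -1.29, -0.75, -1.17 and -1.12. The replicate 1 library lay above both others in all 4 groups for 210 of the higher genes and below both in all 4 groups for 135 of the lower ones. Over all genes tested, 1095 (8.16%) had replicate 1 as the highest in all 4 groups and 544 (4.06%) had it as the lowest. A like shift in every group is close to a condition of being called. The counts among called genes are therefore no support for a shared shift. The count of calls moved with single libraries, from 70 without cDC2 KO replicate 3 to 714 without cDC1 KO replicate 1. It was 100 without both cDC2 libraries numbered 1, of which 67 were among the 353. All 353 kept their sign there, which their choice on the full contrast all but fixes. With the mouse pool as a random block in limma-voom, which fits a negative correlation of -0.44 within pools, it was 3558. A negative correlation narrows the standard error of a shift that both libraries of a pool share, which raises the count. The pools also follow labels that the cDC2 pair goes against.

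Heat shock chaperones were prominent among the falls. Of the 15 genes called more than 8-fold lower, Hspa1b, Hspa1a, Hspa1l and Hspb1 are chaperones, while D13Ertd608e, with 1 read in the libraries numbered 1 against 226, had the lowest fitted value. Hspa1a, an inducible HSP70 (chr17:34969359-34972156, GRCm38), stood at 15.7 CPM in cDC1 WT replicate 1 against 2340 and 1769 in replicates 2 and 3. It stood at 230.3 CPM against 2779 and 2778 in cDC1 KO, at 91.8 against 3636 and 3131 in cDC2 WT, and at 10.1 against 1291 and 1286 in cDC2 KO. Every library numbered 1 was thus below the lowest of the other 8, with no overlap. The fitted log2 difference was -5.49 (SE 0.62), which is 45.0-fold lower. Hspa1b, its neighbouring near copy (chr17:34956429-34959238), stood at 40.9, 743, 318 and 23.4 CPM in the libraries numbered 1 of cDC1 WT, cDC1 KO, cDC2 WT and cDC2 KO. The other 8 libraries ranged from 4132 to 11980 CPM, and the fitted difference was -5.58 (SE 0.70). Together both genes took 0.532% to 1.59% of all reads in replicates 2 and 3 and 0.00349% to 0.0966% in replicate 1. Without both cDC2 libraries numbered 1 the fitted differences were -4.93 for Hspa1a and -4.97 for Hspa1b.

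Hspa1a and Hspa1b are intronless genes on the minus strand, and the 250 bases before their start sites are shown because these genes were the most highly read of those called more than 8-fold lower and because their sequences are so alike that reads can be split between them. The windows are chr17:34972157-34972406 for Hspa1a and chr17:34959239-34959488 for Hspa1b, from RefSeq on GRCm38.p6, read on the gene's strand. Capitals mark the 2-unit heat shock motif GAANNTTC or TTCNNGAA, searched on both strands and chosen after the data were seen.
Hspa1a: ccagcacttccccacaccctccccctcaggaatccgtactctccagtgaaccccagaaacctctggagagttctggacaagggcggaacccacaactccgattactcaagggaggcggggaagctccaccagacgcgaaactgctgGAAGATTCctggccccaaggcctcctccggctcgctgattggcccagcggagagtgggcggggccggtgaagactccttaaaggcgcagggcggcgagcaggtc
Hspa1b: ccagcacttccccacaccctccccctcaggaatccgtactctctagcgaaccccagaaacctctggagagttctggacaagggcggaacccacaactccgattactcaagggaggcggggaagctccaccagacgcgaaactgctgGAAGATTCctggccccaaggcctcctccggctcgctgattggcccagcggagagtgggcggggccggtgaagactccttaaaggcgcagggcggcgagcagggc
The windows differed at 3 of 250 bases, and in both the motif ended 96 bases before the start. The window of Hspe1 (chr1:55087898-55088147, plus strand), the small co-chaperonin of mitochondria, holds 4 units in a row, marked by the capitals. In them lie 3 overlapping matches of the 2-unit motif and 2 of a longer 3-unit motif, in which a further GAA or TTC follows at the same spacing.
Hspe1: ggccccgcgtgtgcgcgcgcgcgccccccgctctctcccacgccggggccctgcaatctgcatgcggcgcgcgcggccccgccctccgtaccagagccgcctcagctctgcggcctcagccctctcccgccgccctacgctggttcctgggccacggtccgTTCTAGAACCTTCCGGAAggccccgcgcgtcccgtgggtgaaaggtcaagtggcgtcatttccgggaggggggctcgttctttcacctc
Of 27025 genes with a promoter in the RefSeq table, 3932 (14.5%) held the 2-unit motif and 139 (0.514%) the 3-unit motif in this window. Of the heat shock chaperone list, 25 genes had a promoter there, of which 10 (40%) held the shorter motif and 2 (8%) the longer. Of the 10 members called lower, 9 had a promoter there. Of these, 5 held the shorter motif and 1, Hspe1, the longer. Dnajb1, Hspa1l, Bag3 and Cacybp held neither motif, so the windows printed here are not typical of all called members. These matches describe letters in a window and not binding. Over the 12 libraries the reads of Hspa1a were 0.289 to 0.431 of those of Hspa1b, and those of Hspa1l, which starts beside Hspa1a on the other strand, were 0.0506 to 0.0591 of Hspa1b's. The use of strand in counting is not given in the sources used here, so the split of reads among these 3 genes, Hspa1l at -5.49 included, is uncertain.

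Dnajb1, the HSP40 partner that loads clients onto HSP70 (chr8:83608175-83612653), stood at 68.7 CPM in cDC1 WT replicate 1 against 719.5 and 649, and at 165 against 605 and 614 in cDC1 KO. It stood at 182 CPM against 2046 and 2114 in cDC2 WT and at 99.2 against 984 and 889 in cDC2 KO. The 2 sets of libraries did not overlap, and the fitted difference was -2.95 (SE 0.27), or 7.73-fold lower. It was -2.54 (SE 0.32) without both cDC2 libraries numbered 1.

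Of the 29 heat shock chaperones and cofactors tested, 10 were called lower and none higher, beside 1.04% of all genes called lower. The list's median log2 difference was -0.47 against 0.03 over all genes tested. Its summed level was 3990 to 6260 CPM in the libraries numbered 1 and 11400 to 25300 in the other 8. Beside the HSP70 and HSP40 genes above, the other 6 called members, and the members not called that are named below, were named after their values were seen. Hspb1, the small heat shock protein HSP27, had 14 reads in the libraries numbered 1 and 674 in the others, with a level of 0 to 0.192 CPM against 1.01 to 8.37. Bag3, an HSP70 cofactor, lay at 7.08 to 18.6 CPM in the libraries numbered 1 and at 16.1 to 50.9 in the others, and was the lowest within each group. Hspe1 (log2 -1.06), Dnajb4 (-1.02), Hspa8, the constitutive HSP70 (-0.84), and Cacybp (-0.62) made up the rest. In contrast to the inducible genes, Hspa8 changed by less than 2-fold, from 1144 to 1574 CPM against 1620 to 2666. The HSP90 gene Hsp90aa1 (-1.19) and the HSP110 gene Hsph1 (-1.99) had replicate 1 as the lowest in all 4 groups without being called. The HSP90 gene Hsp90ab1 (-0.31) and the factor Hsf1 itself (0.08) were not called. When that cDC2 pair was left out, 6 of the 29 were called lower, and Hspe1 (-0.95), Dnajb4 (-1.11), Hspa8 (-0.85) and Cacybp (-0.51) were not.

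**Figure D2:**
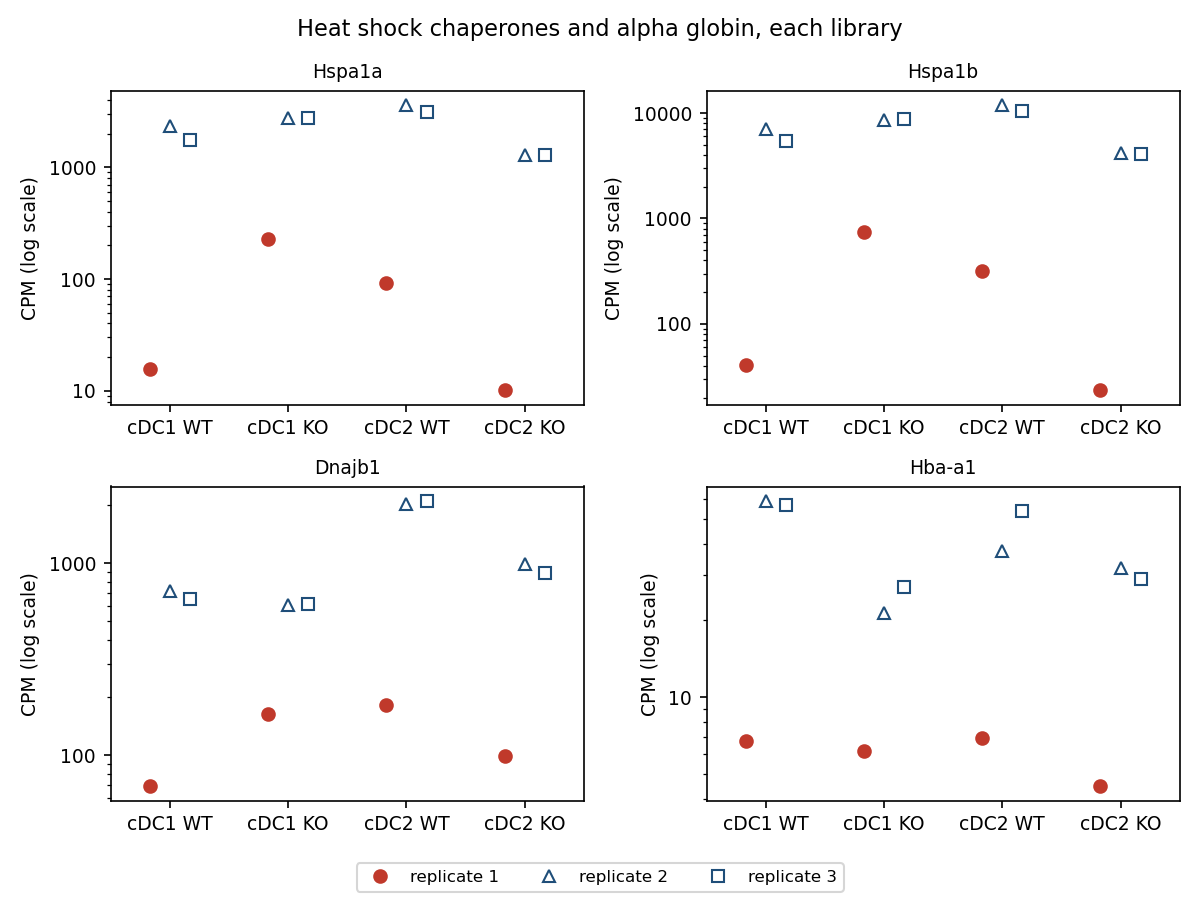
Level of Hspa1a, Hspa1b, Dnajb1 and Hba-a1 in each of the 12 libraries, in CPM on a log axis, with 1 point per library and the groups along the horizontal axis. Filled points are replicate 1, open triangles replicate 2 and open squares replicate 3. In each panel the filled points lie below all open ones, for Hba-a1 between 4.47 and 6.94 CPM against 21.3 or more.

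Not every stress gene was lower. Among 31 immediate early genes, 4 were called higher and 4 lower, beside 1.59% and 1.04% of all genes, and the median was 0.41. When the cDC2 pair was left out, 7 were called higher and 2 lower, with a median of 0.38. Egr3, a zinc finger factor induced by receptor signalling, had the largest rise of the genes named by rule. It stood at 429 CPM against 44.3 and 31.2 in cDC1 WT, at 353 against 96.0 and 87.7 in cDC1 KO, at 172 against 57.5 and 72.7 in cDC2 WT, and at 374 against 115 and 108 in cDC2 KO. All 4 libraries numbered 1 were above the highest of the others, and the fitted difference was 2.21 (SE 0.28), or 4.62-fold. Dusp5, a phosphatase that acts on ERK (1.18), Maff, a small Maf factor (0.96), and Junb (0.58) were the other members called higher. Jun, the AP-1 subunit, went the other way. Its level was 219 CPM against 1297 and 1086 in cDC1 WT, 835 against 1938 and 1927 in cDC1 KO, 1149 against 2415 and 2034 in cDC2 WT, and 898 against 2148 and 2191 in cDC2 KO. The fitted difference was -1.43 (SE 0.22), and replicate 1 was the lowest in each group, although the ranges of the 4 and the 8 libraries overlapped. Fos (-0.74), Myc (-1.05) and the activation marker Cd69 (-1.25) were also called lower. When the cDC2 pair was left out, Junb (0.45), Fos (-0.77) and Cd69 (-0.85) were not called, while Jun (-1.78) and Myc (-1.25) were. Junb, Fos, Myc and Cd69 were named after their values were seen.

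Of 20 NF-kB targets and inflammatory cytokines, 3 were called higher and none lower, beside 1.59% of all genes called higher, with a median of 0.25. Il1b, which encodes interleukin 1 beta, stood at 1104, 2141, 2292 and 3349 CPM in the libraries numbered 1 of cDC1 WT, cDC1 KO, cDC2 WT and cDC2 KO. Its group mates stood at 487 and 553, 1233 and 1276, 1603 and 1722, and 1162 and 1241, and the fitted difference was 0.97 (SE 0.16). Tnf, the cytokine TNF, was called at 1.01 (SE 0.20), but in cDC1 WT its level of 56.1 CPM in replicate 1 was close to the 53.5 and 48.6 of the others. Without both cDC2 libraries numbered 1 the value for Tnf was 0.48 (SE 0.17) and was not called. Relb, a subunit of NF-kB, was called at 0.60 and had no call without the pair, at 0.69. The list's summed level was highest in replicate 1 in all 4 groups.

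The other stress lists held no more than 1 call in each direction, beside 1.59% of all genes called higher and 1.04% called lower. A list's share thus rests on 1 gene. Of 15 oxidative stress genes, Hmox1, the haem-degrading enzyme heme oxygenase 1, was called lower at -1.23 (SE 0.19), with 21.2 to 60.7 CPM in the libraries numbered 1 against 55.5 to 94.2. In the same list Gclc, which starts glutathione synthesis, was called higher at 0.68. Of 15 hypoxia genes 1, Ddit4, an inhibitor of mTORC1, was called lower (-1.14). Of 24 chaperones and sensors of the endoplasmic reticulum 1, Herpud1, was called higher (0.63), and the list's median was 0.14. Of 8 dissociation-linked genes tested 1, Areg, an EGF receptor ligand at no more than 5.57 CPM in any library, was called higher (1.67). Of these genes Ddit4 (-1.31) was called when the cDC2 pair was left out. Hmox1 (-0.84), Gclc (0.92), Herpud1 (0.51) and Areg (1.33) were not. The summed level of the endoplasmic reticulum list was 5030 to 10700 CPM in the libraries numbered 1 against 4490 to 12100.

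Red cell transcripts were lower in every library numbered 1. Hba-a1, an alpha globin (chr11:32283672-32284486), stood at 6.76 CPM against 58.9 and 56.9 in cDC1 WT and at 6.13 against 21.3 and 27.0 in cDC1 KO. It stood at 6.94 CPM against 37.5 and 53.7 in cDC2 WT and at 4.47 against 32.0 and 29.0 in cDC2 KO. The sets did not overlap, and the fitted difference was -2.62 (SE 0.21), or 6.16-fold lower. The second alpha globin Hba-a2 (-2.81) and the beta globins Hbb-bs (-3.32) and Hbb-b1 (-3.18) were lower as well. Hbb-bs, for example, lay at 2.25 to 5.06 CPM in the libraries numbered 1 and at 19.0 to 66.3 in the others. Hba-a1 and Hba-a2 differ at 1 of 429 bases of their reading frame, and their read ratio was 0.494 to 0.791, so their reads can be split and their values are not separate evidence. The 4 globin genes took 0.0131% to 0.0373% of reads in replicates 2 and 3 and 0.00198% to 0.00398% in replicate 1.

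Of 17 erythroid genes tested, 6 were called lower and none higher, beside 1.04% of all genes, and all 17 fitted values were below 0, with a median of -2.66. Alas2, the first enzyme of haem synthesis in red cells, lay at 0.658 to 1.12 CPM against 3.07 to 8.90, and Slc4a1, the red cell anion exchanger band 3, at 0.302 to 1.10 against 2.56 to 6.47. The list summed to 37.9 to 61.1 CPM in the libraries numbered 1 and to 158 to 440 in the others. No erythroid gene was at 0 in all 4 libraries numbered 1. Alas2 and Slc4a1 were named after their values were seen. Without both cDC2 libraries numbered 1, the same number of the list, 6, was called lower, and Hba-a1 stood at -2.50 (SE 0.30).

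Neutrophil transcripts were low in all libraries and lowest in replicate 1. S100a9, a calcium-binding protein of neutrophils, stood at 0.495 CPM against 6.63 and 13.3 in cDC1 WT, at 2.79 against 4.03 and 6.02 in cDC1 KO, at 2.98 against 48.5 and 54.4 in cDC2 WT, and at 0.603 against 45.7 and 37.4 in cDC2 KO. Its partner S100a8 ranged from 0.385 to 2.77 CPM against 1.70 to 28.6. The gap was wide in 3 groups and narrow in cDC1 KO. Of 8 neutrophil genes tested, 3 were called lower (S100a8, S100a9 and Camp, an antimicrobial peptide precursor at no more than 7.68 CPM) and none higher, beside 1.04% of all genes called lower. Ly6g was at no more than 0.055 CPM in any library, and Elane had no read in any. The 12 genes summed to 1.43 to 7.82 CPM in the libraries numbered 1 and to 8.13 to 96.8 in the others, with replicate 1 the lowest in all 4 groups. The calls rested on the cDC2 pair: without it the fitted differences were -2.04 (SE 0.65) for S100a9 and -1.77 (SE 0.62) for S100a8, and none of the list was called.

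Macrophage transcripts split. Of 18 genes of red pulp macrophages, the splenic cells that clear old red cells, 5 were called lower and none higher, beside 1.04% of all genes called lower. In this list 11 had replicate 1 as the lowest in all 4 groups, beside 4.06% of all genes. Cd5l, a secreted macrophage protein, stood at 3.13, 1.95, 6.31 and 5.95 CPM in the libraries numbered 1 of cDC1 WT, cDC1 KO, cDC2 WT and cDC2 KO, against 8.17 to 27.8 in the others, a fitted difference of -1.99 (SE 0.18). Slc40a1, the iron exporter ferroportin, lay at 9.18 to 19.6 CPM against 21.1 to 62.2 (-1.55, SE 0.19). The complement subunit C1qb (-1.72), its partner C1qc (-1.13) and the mannose receptor Mrc1 (-1.32) completed the 5. Spic, the factor that specifies these macrophages (-0.59), was not called, and neither was Treml4 (-0.07), at 55.2 to 253 CPM in the libraries numbered 1. C1qc, Spic and Treml4 were named after their values were seen. The summed level ran from 442 to 788 CPM in the libraries numbered 1 against 483 to 806, and replicate 1 was the lowest in 3 groups but the highest in cDC2 KO. That exception rests on the library labelled cDC2 KO replicate 1, which goes against its genotype label, at 788 CPM against 552 and 555. The library labelled cDC2 WT replicate 1 stood at 507 CPM against 800 and 774. When the cDC2 pair was left out, 5 of the 18 were called lower as well, but Mrc1 (-1.45) was not among them.

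The remaining cell type lists held calls as follows, beside 1.59% of all genes called higher and 1.04% called lower. Of 7 plasma cell genes 1, Iglv1, was called lower (-1.25, and -1.13 with no call without the cDC2 pair), while the list's sum of 5.97 to 43.3 CPM against 26.2 to 101 was lowest in replicate 1 in all 4 groups. Jchain, the joining chain of secreted antibodies, had no call at -1.48 with all libraries and was called lower at -2.37 without both cDC2 libraries numbered 1. Of 14 genes of plasmacytoid dendritic cells 2 were called lower, namely Ly6d, at 0.055 to 1.3 CPM against 1.66 to 6.81, and Klk1, with 1 read against 115. Klk1 had no call without the cDC2 pair. None of 13 B cell, 9 T cell, 7 NK cell, 4 platelet, 11 endothelial and stromal, or 3 basophil, mast cell and eosinophil genes was called. Their medians were -0.39, -0.53, 0.11, 0.18, -0.14 and 0.29. When the cDC2 pair was left out, the B cell median was -0.85 with 1 gene called lower, Igkc, an immunoglobulin light chain (-1.90), and the NK cell median was -1.27 with no call. Among 13 monocyte genes, Ccr2, the receptor for the chemokine CCL2, was called higher, at 114, 625, 161 and 89.7 CPM in replicate 1 against 42.6 and 51.6, 486 and 464, 37.3 and 27.5, and 37.7 and 48.4 (1.31, SE 0.24). Ccr2 is also made by conventional dendritic cells and their precursors, and without both cDC2 libraries numbered 1 it stood at 0.86 (SE 0.23) and was not called. The part that cell purity plays in these values was not tested.

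**Figure D3:**
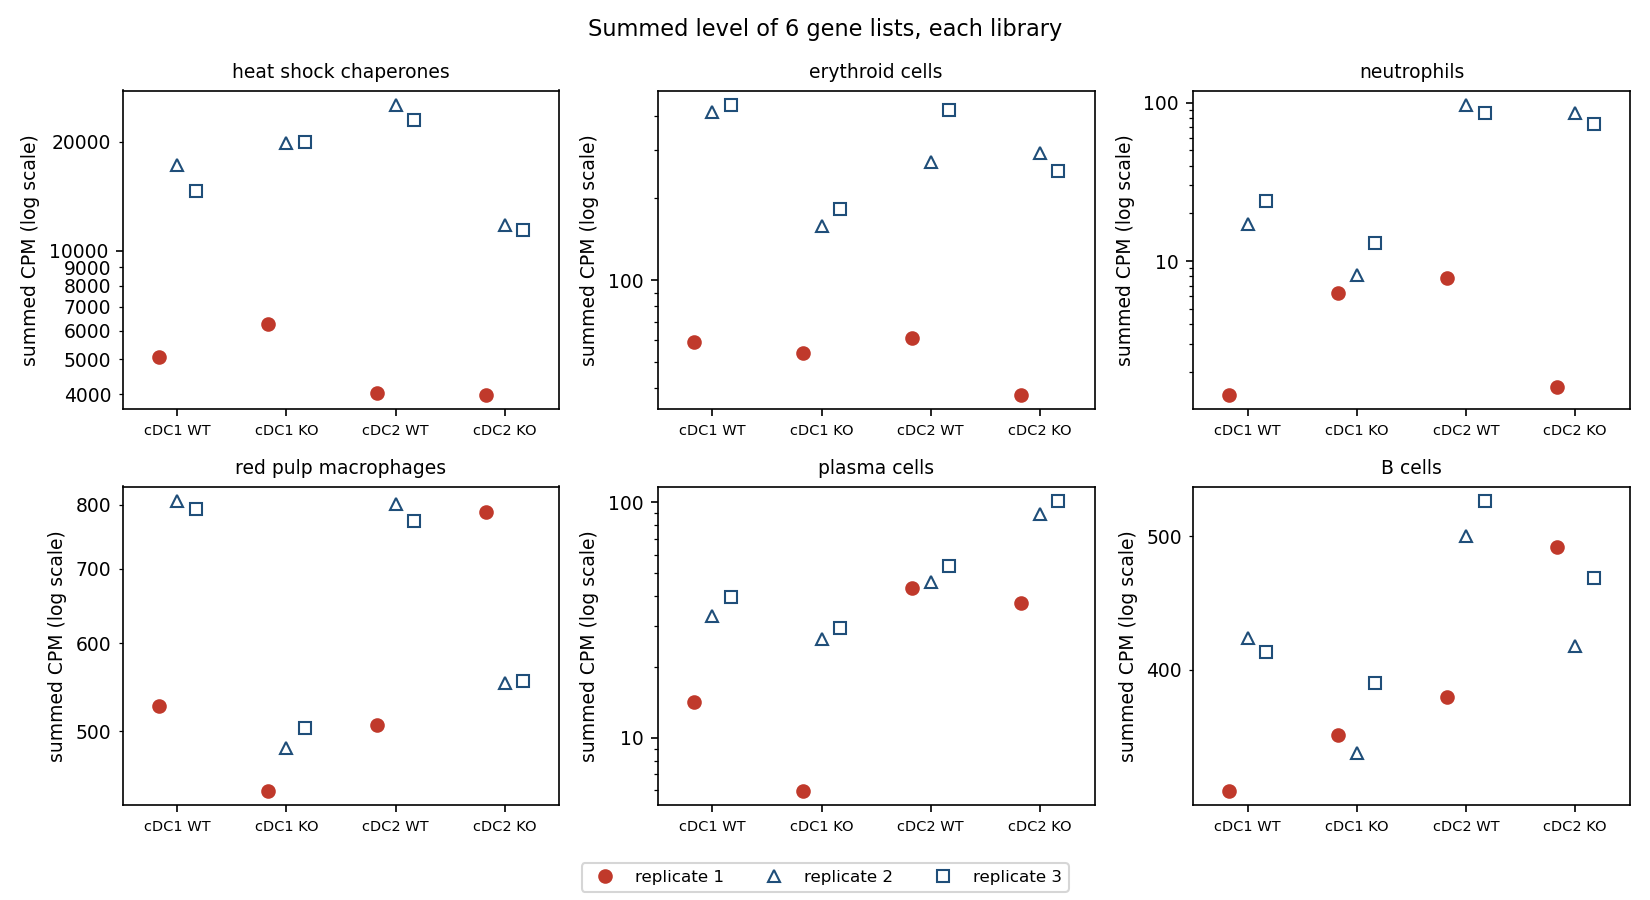
Summed CPM of 6 gene lists in each of the 12 libraries on log axes, with 1 point per library and each panel on its own scale. Filled points are replicate 1. They lie below both open points of their group in all 4 groups for heat shock, erythroid, neutrophil and plasma cell genes, in 3 groups for red pulp macrophages and in 2 for B cells.

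**Figure D4:**
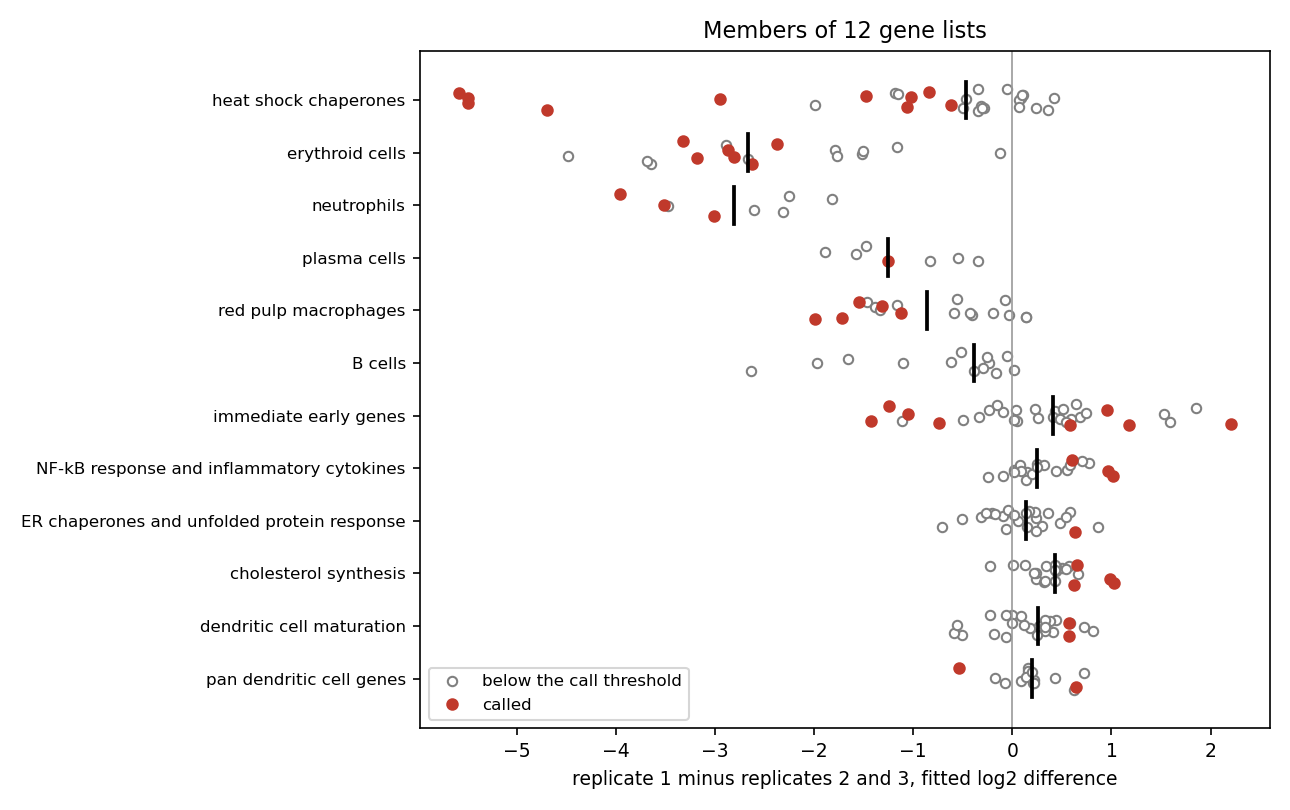
Fitted log2 difference of replicate 1 from replicates 2 and 3 for the tested members of 12 gene lists, with 1 point per gene and a black bar at each list's median. Filled points were called at an adjusted p below 0.05. The heat shock list runs from -5.58 to 0.42 with 10 called, while immediate early genes lie on both sides of 0 with 4 called each way, or 7 higher and 2 lower without both cDC2 libraries numbered 1.

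Among genes of the dendritic cells themselves 5 were called, beside 1.59% of all genes called higher and 1.04% called lower, and single libraries differed. The summed level of 15 genes shared by dendritic cells was 61610 CPM in cDC1 WT replicate 1 against 85210 and 82400, but 73920 in the library labelled cDC2 KO replicate 1 against 47690 and 48520. None of 26 genes of the cDC1 signature was called, and 1 of 24 of the cDC2 signature was, Rbpj, the Notch effector (0.58). Among 15 genes shared by dendritic cells, Itgax was called higher (0.64, SE 0.12) and Zbtb46, a transcription factor of conventional dendritic cells, lower (-0.54, SE 0.11). Zbtb46 stood at 77.1 CPM against 111 and 108 in cDC1 WT, at 65.9 against 90.1 and 92.0 in cDC1 KO, at 95.5 against 123 and 146 in cDC2 WT, and at 73.0 against 118.5 and 115 in cDC2 KO. Of 26 maturation genes 2 were called higher, the membrane proteins Tmem176a and Tmem176b (both 0.57), which lie side by side. The list's sum was highest in replicate 1 in all 4 groups at 6920 to 9120 CPM against 4340 to 7290. In cDC2 WT the margin was narrow, at 7265 CPM against 7199 and 7142. On plain library totals replicate 1 was not the highest there, at 7278 CPM against 7327 in replicate 2. None of these 5 genes was called without both cDC2 libraries numbered 1, where the values were 0.70 for Itgax, -0.48 for Zbtb46, 0.47 for Rbpj, 0.51 for Tmem176a and 0.44 for Tmem176b.

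Cholesterol synthesis had 4 of 22 genes called higher and none lower, beside 1.59% of all genes, with a median of 0.43. They included the sterol sensor Insig1 (0.62), Hmgcs1, an early enzyme of the pathway (0.65), and Hsd17b7 (1.03). Insig1 stood at 85.7 CPM against 49.1 and 50.1 in cDC1 WT, at 140.3 against 81.0 and 81.6 in cDC1 KO, at 82.5 against 58.6 and 70.8 in cDC2 WT, and at 84.3 against 61.2 and 54.7 in cDC2 KO. When the cDC2 pair was left out, 1 gene of the list was called, Insig1, at 0.79, while Hmgcs1 stood at 0.84 and Hsd17b7 at 0.97. Interferon-stimulated genes (30 tested), cell cycle genes (29), glycolysis genes (17) and spliceosome genes (20) held no call. Neither did 86 ribosomal protein genes, 47 histone genes, 25 small RNA genes or 13 mitochondrially encoded genes, of which 10 were called higher without both cDC2 libraries numbered 1. The ribosomal genes nevertheless lay below 0 in 85 of 86 cases, with a median of -0.56, and summed to 29020 CPM in cDC1 WT replicate 1 against 73880 and 85400 and to 44010 in cDC2 KO replicate 1 against 118500 and 101900. In cDC1 KO and cDC2 WT replicate 1 lay between its group mates, at 48420 and 91890 CPM. All 13 mitochondrial genes lay above 0, with a median of 0.56, but the groups differed. In cDC1 replicate 1 they summed to 21570 CPM against 11630 and 13520 in WT and to 20500 against 8251 and 6908 in KO. In cDC2 WT replicate 1 was the lowest, at 15730 CPM against 17260 and 21830. In cDC2 KO it stood at 26880 CPM against 24140 and 25300. Of 14 nuclear long non-coding RNAs, 12 lay below 0, with a median of -0.48. The other 2, Tug1 (0.66) and Norad (0.71), were called higher, and had no call without the cDC2 pair, at 0.74 and 0.80. The low median rests on that pair, without which it was 0.03. The list summed to 1287 CPM in cDC1 WT replicate 1 against 621 and 688, and to 724 in cDC1 KO against 769 and 631. In replicate 1 of cDC2 it summed to 522 CPM against 1160 and 1688 in WT and to 585 against 1150 and 945 in KO.

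Beyond the lists, the largest rises with replicate 1 above both others in all 4 groups included Csrnp1, a nuclear protein, and Cdkn1a, the cell cycle inhibitor p21. Csrnp1 stood at 446, 1057, 1092 and 827 CPM in the libraries numbered 1 of cDC1 WT, cDC1 KO, cDC2 WT and cDC2 KO against 158 to 489.9 in the others (1.30, SE 0.12). Cdkn1a stood at 56.8 CPM against 22.6 and 21.1, 199 against 102 and 93.3, 72.9 against 33.8 and 30.1, and 97.7 against 35.4 and 31.6 in the same order (1.29, SE 0.11). Both were called with and without the cDC2 pair. Trib1, a pseudokinase (1.26), the leukotriene receptor Ltb4r1 (1.21), Zfp628 (1.20), the lipid enzyme Cds1 (1.18) and Kctd12 (1.17) followed. Trib1 was called without the cDC2 pair, and the other 4 of these 5 were not, at 1.17 for Ltb4r1, 1.26 for Zfp628, 1.27 for Cds1 and 1.26 for Kctd12. Among the largest falls outside the lists were Slpi, a secreted protease inhibitor (-2.27, SE 0.27), at 1.35 to 7.61 CPM against 7.90 to 24.5, and Lif, a cytokine of the interleukin 6 family (-2.20, SE 0.38), at 0.14 to 5.83 CPM against 0.546 to 26.0. Both were called without the cDC2 pair too.

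Gene length moved with the shift, differently in each group. Across 13415 genes, the Spearman correlation of the deposited gene length with the shift was 0.60 in cDC1 WT, -0.07 in cDC1 KO, -0.18 in cDC2 WT and 0.33 in cDC2 KO, and 0.35 for the fitted mean shift. Genes are not independent replicates, and all genes of a library share its preparation. The cDC2 values also depend on which of the libraries that go against their labels sits in which group. In the longest of 10 equal bins of genes, with a median of 7362 bases, the median shift was 1.15 in cDC1 WT and -0.73 in cDC2 WT. In the shortest bin, with a median of 604 bases, it was -0.86 in cDC1 WT and -0.65 in cDC2 KO. The median length was 3863 bases for genes called higher, 2215 for genes called lower and 2644 for all tested. With an offset that removed the length trend of each library, 514 genes were called, among them 278 of the 353. All 353 kept their sign, which their choice from the same libraries favours.

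**Figure D5:**
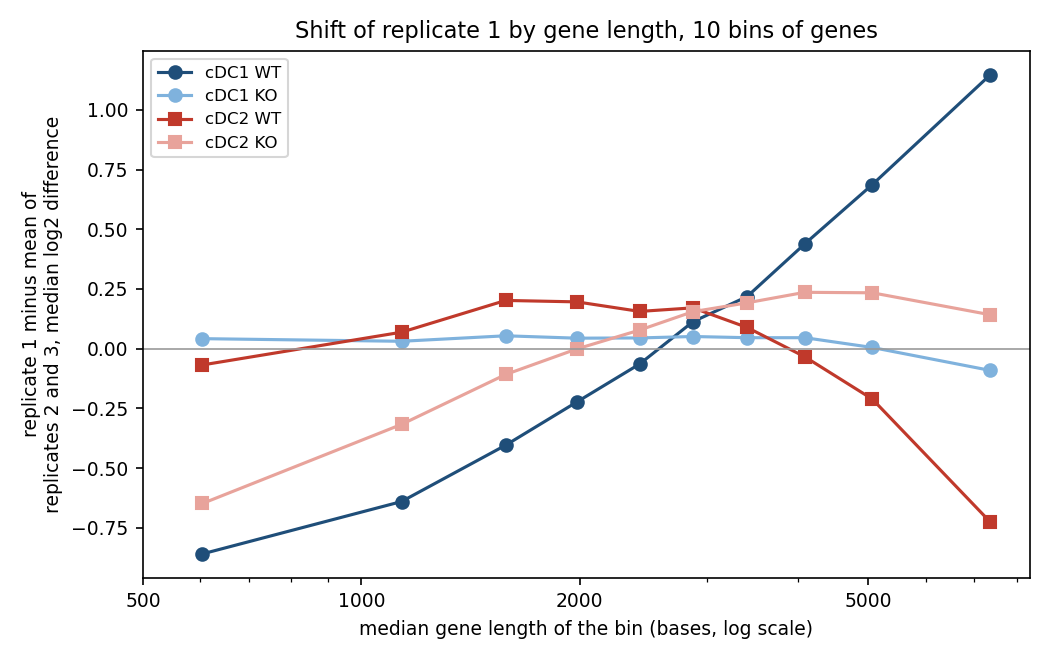
Median log2 shift of replicate 1 from the mean of replicates 2 and 3 in 10 bins of genes of rising length, with 1 line per group and the median length of each bin on a log axis. The line of cDC1 WT climbs from -0.86 to 1.15, that of cDC1 KO stays between -0.09 and 0.05, and that of cDC2 WT ends at -0.73.

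The shift of the library numbered 1 was not the same in all groups. Across the 13415 genes, the shifts of cDC1 WT and cDC2 KO had a Pearson r of 0.44 and those of cDC1 KO and cDC2 WT one of 0.45. For the pairs that share a mouse pool by their labels, r was 0.27 for cDC1 KO with cDC2 KO and -0.26 for cDC1 WT with cDC2 WT. These values describe the libraries, whose genes share depth and length trends. The same 2 pairings appear in Hspa1a, at 15.7 and 10.1 CPM in cDC1 WT and cDC2 KO and at 230.3 and 91.8 in cDC1 KO and cDC2 WT.

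Whether the shift differed between the cell subsets was tested with an interaction term, which the choice of the comparison did not use. The fit holds the cDC2 libraries that go against their labels, and its spread and calls depend on those labels. In edgeR's quasi-likelihood test 1 of 13415 genes passed (0.00745%), Cd209d, a C-type lectin. Its level was 0.11 CPM in cDC1 WT replicate 1 against 1.48 and 1.33, and 0.159 in cDC1 KO replicate 1 against 1.62 and 1.39. In cDC2 it was 19.6 CPM against 2.28 and 3.37 in WT and 9.49 against 2.72 and 2.22 in KO. The shift was thus downward in cDC1 and upward in cDC2, with a difference of -5.71 (SE 0.54, edgeR adjusted p = 0.0498). For the markers, the cDC1 shift minus the cDC2 shift was 0.80 (SE 1.05) for Hspa1a, 0.90 (SE 1.26) for Hspa1b, 0.77 (SE 0.29) for Dnajb1 and 0.20 (SE 0.36) for Hba-a1. None passed, with edgeR adjusted p-values of 0.846, 0.857, 0.672 and 0.893, which does not show that the shifts were equal. Over all genes 902 had an unadjusted p below 0.05, which is 6.72%. With the mouse pool as a fixed block no gene was called, and Cd209d kept its direction at -5.72.

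The same test between the genotypes called 4 genes (0.0298%), Nid1, St8sia3, Gria3 and Bmp2. The fit holds the cDC2 libraries that go against their labels. In the cDC1 libraries alone the differences were -4.01 for Nid1, -2.91 for Gria3 and -3.69 for Bmp2. Those libraries are part of the fit that picked these genes and hold 1 library numbered 1 per genotype. The values are thus sizes and no separate support. Bmp2, a growth factor of the TGF-beta family, stood at 1.43 CPM against 0.51 and 0.636 in cDC1 WT and at 1.19 against 6.51 and 5.45 in cDC1 KO. It stood at 68.6 CPM in the library labelled cDC2 WT replicate 1 against 46.8 and 38.8, and at 38.9 in the library labelled cDC2 KO replicate 1 against 140 and 158. The shift in KO minus that in WT was -3.01 (SE 0.32, edgeR adjusted p = 0.0332). For Hspa1a the difference was 0.82 (SE 1.05), for Hspa1b 0.68 (SE 1.26), for Dnajb1 0.85 (SE 0.29) and for Hba-a1 0.53 (SE 0.36), with edgeR adjusted p-values of 1, 1, 0.726 and 1. With the pool as a random block in limma-voom, 455 genes were called. That fit had a correlation of -0.57 within pools, which narrows the standard errors here.

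Replicates 2 and 3, which the comparison joins as its reference, were also compared with each other. No gene was called in edgeR's quasi-likelihood test (0%), 26 genes (0.194%) had an unadjusted p below 0.05, and DESeq2 called none, with 58 genes below that value. The spread in this fit includes that of the libraries numbered 1, which makes calls hard to reach. Without those 4 libraries edgeR called 0 genes, and 227 had an unadjusted p below 0.05. The 0 calls therefore do not show that replicates 2 and 3 were alike. With all libraries, replicate 2 minus replicate 3 was 0.18 (SE 0.54) for Hspa1a, 0.17 (SE 0.60) for Hspa1b, 0.06 (SE 0.28) for Dnajb1 and -0.15 (SE 0.22) for Hba-a1, with an edgeR adjusted p of 1 for each. The markers were chosen by a contrast whose spread includes this difference, so a small value is favoured by that choice.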

How the data were processed

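The deposited table holds counts of reads per gene, which the authors made with featureCounts on GRCm38/mm10, per the submitters' processing notes; the version and the aligner are not given in the sources used here. It lists 27179 genes by Entrez identifier, of which 25275 were named by RefSeq, 18 by GENCODE only and 1886 by neither. Each of the 12 sample files equalled its column. The 4 group means, with a term for replicate 1, were fitted to the counts in edgeR 4.0.16 (R 4.3.3) with TMM scaling and quasi-likelihood tests over 13415 genes that passed edgeR's filter on low counts, with Benjamini-Hochberg adjustment over all of them at 0.05. Interaction terms tested the difference of the shift between subsets and between genotypes. Alternatives used DESeq2 1.42.0 and limma 3.58.1, and the fits were tested on simulated data. The members, lists and comparison were chosen with earlier results of these data known.

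Named genes were the 4 markers, the 12 largest rises and 12 largest falls with replicate 1 beyond both others in all 4 groups and a mean of at least 5 CPM in the higher libraries, up to 4 members per list with the smallest p, and the 8 smallest p of each tested difference; not all are printed, and some genes are not reported here. Same-numbered cDC1 and cDC2 libraries of a genotype came from 1 mouse pool, per the labels, and their residuals correlated at 0.27, 0.14 and 0.20 in pools 1 to 3 and at -0.26, -0.17 and -0.11 in pools 4 to 6. Nothing in the labels says how the pools were handled, so p-values measure the spread between these libraries.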

Additional observations from a re-analysis of the deposited data

Results flagged for a closer look

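The genes called in the tested differences are given here with their values. Cd209d differed between the subsets, with the cDC1 shift minus the cDC2 shift at -5.71 (edgeR adjusted p = 0.0498), lower in replicate 1 in both cDC1 groups and higher in both cDC2 groups.

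Between the genotypes, 4 genes differed in a fit that holds the cDC2 libraries numbered 1, which go against their labels. Bmp2 differed by -3.01 (edgeR adjusted p = 0.0332), and by -3.64 without both of those libraries. Nid1, a basement membrane protein, differed by -4.30 (edgeR adjusted p = 0.0249), and by -3.96 without both. Its level was 1.81 CPM in cDC1 WT replicate 1 against 0.408 and 0.173 and 1.75 in cDC1 KO replicate 1 against 4.54 and 4.54, with 25.4 CPM in the library labelled cDC2 WT replicate 1 against 6.46 and 7.47, and 7.24 in the library labelled cDC2 KO replicate 1 against 43.8 and 46.8. Gria3, a glutamate receptor subunit, differed by -2.67 (edgeR adjusted p = 0.0332), and by -2.86 without both. Its level was 0.935 CPM against 0.153 and 0.173 in cDC1 WT and 51.4 against 67.2 and 66.4 in cDC1 KO, with 9.08 CPM against 3.49 and 4.01 and 3.37 against 7.79 and 8.56 in the cDC2 libraries. St8sia3, a sialyltransferase, had a fitted value of -17.69 (edgeR adjusted p = 0.0332), which depends on libraries without a read and is no estimate of size. It was -1.63 and had no call without both of those libraries, on which it rests. Its level was 11.7 CPM in the library labelled cDC2 WT replicate 1 against 0.093 and 0, and 0 in the library labelled cDC2 KO replicate 1 against 13.8 and 15.2.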

How the results depend on the processing

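Of 13415 genes, 353 were called in replicate 1 against replicates 2 and 3. DESeq2 called 1689, and leaving out 1 library at a time gave 70 to 714. The cDC1 libraries alone gave 0 calls in edgeR (1576 genes at an unadjusted p below 0.05), the cDC2 libraries alone 1, the WT libraries alone 0 (1111 at an unadjusted p below 0.05) and the KO libraries alone 186; fewer samples enter each. Without both cDC2 libraries numbered 1, an alternative chosen after seeing the data, 100 were called. Every one of the 353 that was tested kept its sign under all of these. The genes were picked on the full contrast of the same libraries. That all but fixes the sign, so it is no separate support.

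The difference between subsets had 1 call. It had 0 with RLE size factors and with the stricter filter, 64 in DESeq2, 4106 in the WT libraries alone, 4595 in the KO libraries alone and 0 to 5964 when 1 library was left out. Without both cDC2 libraries numbered 1 it could not be fitted. The difference between genotypes had 4 calls. It had 8 without a filter, 160 in DESeq2, 7 with the gene length offset, 6047 in cDC1 alone, 2373 in cDC2 alone, 4211 without both cDC2 libraries numbered 1 and 0 to 4203 when 1 library was left out. Where a fit lacks a library numbered 1, its shift is taken up by the terms of the model and the spread comes from replicates 2 and 3 alone, which by construction gives many calls. Replicate 2 against replicate 3 had 0 calls in edgeR under every alternative, including 0 to 0 when 1 library was left out.

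The replicate block was the mouse pool that pairs cDC1 and cDC2 libraries. As a random block it gave 3558 calls for replicate 1, 455 for the genotypes and 0 for replicate 2 against 3. The fitted correlations within pools were -0.44, -0.57 and -0.43. Negative values narrow the standard errors of these contrasts between pools, so the counts are no stricter reading. As a fixed block it gave 0 calls for the subsets. The summed levels of the heat shock, erythroid, neutrophil and red pulp macrophage lists and the length correlation moved by less than their spread. The sums of the other lists were not put to this check. Genes with few reads, such as Klk1 and Fosl1, have no precise size at this depth.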
